A study of Mus musculus with 21 samples.

Results

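Mast cell gene expression was examined in the colon of germ-free (GF) mice through 10 genes, of 27115 named genes on the arrays. The genes are the chymases Mcpt1, Mcpt2, Mcpt4, Cma1 and Cma2, the carboxypeptidase Cpa3, the tryptases Tpsb2 and Tpsab1, and the receptor genes Kit and Ms4a2. They were taken by name, and every non-control probe of these genes was used (13 probes on the day 0 design, 11 on the day 7 design). Where a gene had several probes, the one that stands for it was chosen by its mean signal over all arrays of the day, the brightest being taken, and the family itself was picked with the differences between the labels known, so these values are a description. Values are log2 of the normalized signal of a probe, a relative level with no absolute unit, and differences between groups are differences of log2 values. The brightness of different probes was not compared, since each probe binds its target differently.

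Total colon RNA was measured with single-color arrays in male C57BL/6J mice raised without microbes, either wild type (GF WT) or lacking Card9, an adaptor of innate immune signalling, in every tissue of the body (GF Card9-/-). At day 0, before dextran sulfate sodium (DSS) was given, 7 arrays were labelled GF Card9-/- and 6 GF WT. At day 7 of drinking 2% DSS, which injures the colon lining, 4 arrays were labelled GF Card9-/- (replicates 2, 2.1, 4 and 6) and 4 GF WT (replicates 1, 4, 5 and 6). The labels give no age and do not say that each array is a separate mouse, so the tests measure the spread between these samples. Replicates 2 and 2.1 differed by an SD of 0.852 over probes, within the 0.726 to 1.09 of the 12 pairs of same-label arrays at day 7, and were kept as separate samples. The day of sampling and the array design changed together and cannot be told apart, so genotypes were compared within a day and levels were not compared between the days.

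Mast cells are tissue-resident immune cells that store proteases bound to heparin-like proteoglycans in granules and release them on activation, classically through IgE bound to the receptor FcεRI. In mice, mucosal mast cells sit in the epithelium and lamina propria and make the chymases encoded by Mcpt1 and Mcpt2, whereas connective tissue mast cells sit in the submucosa and around vessels and make the chymases encoded by Mcpt4 and Cma1, tryptases and carboxypeptidase A3. Growth of both kinds needs stem cell factor acting on the receptor Kit. In whole-tissue RNA, fewer mast cells and less of these transcripts per mast cell cannot be told apart.

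Card9 itself was opposite to the labels. At day 0 its brightest probe read 8.71 to 9.24 on the 7 arrays labelled GF Card9-/- and 2.30 to 2.33, not well above background, on the 6 labelled GF WT (at least 21.5-fold, adjusted p = 2.92e-13, limma). At day 7 it read 8.0, 8.57, 7.93 and 8.02 on the arrays labelled GF Card9-/-, and 7.85, 2.39, 2.41 and 2.38 on those labelled GF WT, so GF WT replicate 1 carried Card9 signal as well. Whether these Card9 probes lie in the deleted part is not given in the sources used here, and every direction below is that of the deposited labels, with arrays named by them. The labels may be exchanged between the genotypes, in which case every difference below would change sign. GF WT replicate 1 of day 7 would then still differ in Card9 signal from the other arrays of its label. Were the day 7 arrays grouped by Card9 signal instead, the differences would change in size as well, which was not tested. On 1 array of each day a further signal stood far above the rest, that of acinar pancreas genes. Their summed signal was 444000 on GF Card9-/- replicate 6 at day 7, against 4220 to 29200 on the others, and 1490000 on GF Card9-/- replicate 7 at day 0, against 19000 to 80800. All 7 colonocyte markers were well above background on every array, and 42.2 to 57.1% (day 7) and 54.5 to 64.9% (day 0) of spots were well above background.

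The mast cell genes did not differ between the labels as a block. Mcpt1, Mcpt2 and Mcpt4 had higher means under the GF Card9-/- label at both days, by 2.99- to 3.77-fold at day 7 and 2.17- to 7.50-fold at day 0. Kit and Tpsb2, by their brightest probes, differed by 0.31 or less on the log2 scale. These sizes depended on processing and arrays. The log2 differences of Mcpt1, Mcpt2 and Mcpt4 fell as low as 1.06, 0.82 and 1.03 at day 7 and 1.70, 0.43 and 1.46 at day 0. That of Tpsb2 at day 7 ranged from 0.05 to 0.65 when 1 array was left out. No member passed an adjusted p of 0.05 at either day in limma. At an unadjusted p under 0.05, 4 members stood at each day, Mcpt1, Mcpt2, Mcpt4 and Cma2, each with the higher mean under the GF Card9-/- label. The adjusted threshold was passed by 0% of all 44643 probes tested at day 7, where 1511 had an unadjusted p under 0.05, and by 0.0253% of 47410 at day 0, where 2769 had an unadjusted p under 0.05.

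Mcpt1 encodes the mucosal mast cell chymase mMCP-1, which is released into the gut lumen and blood during intestinal mast cell responses. Its probe lies on chromosome 14 (56638928 to 56638987, plus strand, NCBI37) and spans the stop codon of its RefSeq record. The coding bases of that probe, up to and including the stop codon, are shown because Mcpt1 had the largest day 0 difference among the members.
Mcpt1 probe, coding part: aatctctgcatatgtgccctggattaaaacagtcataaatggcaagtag
At day 0 Mcpt1 ranged from 6.43 to 9.81 (median 7.82) on the 7 arrays labelled GF Card9-/- and from 4.85 to 5.33 (median 5.16) on the 6 labelled GF WT. The groups did not overlap, and the GF WT arrays were tightly grouped while the GF Card9-/- arrays were widely spread. The means were 8.04 ± 1.31 (SD, n = 7) and 5.13 ± 0.19 (SD, n = 6), a difference of 2.91 (SE 0.52, 7.50-fold, adjusted p = 0.12).

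At day 7 Mcpt1 read 7.08, 8.36, 6.31 and 7.96 on the arrays labelled GF Card9-/- and 5.72, 4.12, 5.89 and 6.31 on those labelled GF WT. In the GF Card9-/- group, 3 of 4 arrays lay above every GF WT array, and replicate 4 was level with the highest of them, GF WT replicate 6. The means were 7.42 ± 0.92 and 5.51 ± 0.96 (SD, n = 4 each), a difference of 1.91 (SE 0.60, 3.77-fold, adjusted p = 0.913). Mcpt1 was well above background on 4 of 4 arrays labelled GF Card9-/- and on 2 of 4 labelled GF WT.

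Mcpt2 encodes mMCP-2, the other mucosal chymase, and is read by different probes on the 2 designs (56662265 to 56662324 at day 0 and 56663261 to 56663320 at day 7, both on chromosome 14, plus strand, NCBI37). The day 0 probe is wholly coding, and it is printed because its longest run in common with the Mcpt1 probe is 6 bases.
Mcpt2 probe, day 0 design: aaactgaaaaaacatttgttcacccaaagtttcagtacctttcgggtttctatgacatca
At day 0 Mcpt2 ranged from 4.71 to 6.94 (median 5.74) on the arrays labelled GF Card9-/- and from 4.06 to 5.59 (median 4.61) on those labelled GF WT. The groups overlapped, with 4 of 7 arrays labelled GF Card9-/- above all 6 labelled GF WT. The difference was 1.12 (SE 0.38, 2.17-fold, adjusted p = 0.636). Mcpt2 was dim, well above background on 5 of 7 and 3 of 6 arrays, and with values near background raised to the floor of each array the difference was 0.97.

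At day 7 Mcpt2 read 6.21, 7.94, 6.34 and 7.09 on the arrays labelled GF Card9-/- and 5.69, 4.74, 4.94 and 5.65 on those labelled GF WT. The groups did not overlap. The means were 6.90 ± 0.80 and 5.26 ± 0.49 (SD, n = 4 each), a difference of 1.64 (SE 0.43, 3.12-fold, adjusted p = 0.913). Mcpt2 was well above background on 4 of 4 arrays labelled GF Card9-/- but on 1 of 4 labelled GF WT, and with values near background raised to the floor of each array the difference was 1.60. The highest array was GF Card9-/- replicate 2.1, as it was for Mcpt1.

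Among the genes of connective tissue mast cells, Mcpt4, Cma1 and Tpsb2 gave different pictures. Mcpt4 encodes mMCP-4, the chymase closest in activity to human chymase, and its probe lies at 56678589 to 56678648 on chromosome 14 (minus strand, NCBI37). At day 0 Mcpt4 ranged from 7.16 to 9.92 (median 7.75) on the arrays labelled GF Card9-/- and from 5.08 to 7.00 (median 5.88) on those labelled GF WT. The groups did not overlap, although their nearest arrays were close and crossed when each array was scaled to its 75th percentile instead. The means were 8.25 ± 1.18 (SD, n = 7) and 5.96 ± 0.76 (SD, n = 6), a difference of 2.30 (SE 0.53, 4.91-fold, adjusted p = 0.272).

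At day 7 Mcpt4 read 7.38, 8.77, 7.60 and 8.22 on the arrays labelled GF Card9-/- and 7.07, 5.38, 6.63 and 6.57 on those labelled GF WT. The groups did not overlap, and all 8 arrays were well above background. The means were 7.99 ± 0.63 and 6.41 ± 0.73 (SD, n = 4 each), a difference of 1.58 (SE 0.44, 2.99-fold, adjusted p = 0.913). Replicates 2.1 and 6 labelled GF Card9-/- were again the 2 highest arrays. They also carried the most pancreas signal of the 4, and without both of them the day 7 difference was 1.07 for Mcpt4, 1.18 for Mcpt1 and 1.02 for Mcpt2. Without GF WT replicate 1, which carried Card9 signal, it was 1.80 for Mcpt4, 1.99 for Mcpt1 and 1.79 for Mcpt2. At day 0 the array with the most pancreas signal, GF Card9-/- replicate 7, was the lowest of its group for Mcpt1, and without it the difference was 3.17 for Mcpt1 and 2.47 for Mcpt4.

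Cma1 encodes mMCP-5, an elastase-like enzyme that is stored together with carboxypeptidase A3. At day 0 Cma1 ranged from 4.30 to 8.0 (median 6.12) on the arrays labelled GF Card9-/- and from 4.77 to 7.27 (median 5.35) on those labelled GF WT, and the groups overlapped, with a difference of 0.38 (SE 0.56, adjusted p = 0.933). Leaving out 1 array moved it between 0.0556 (GF Card9-/- replicate 5 omitted) and 0.699 (GF WT replicate 2 omitted). At day 7 another Cma1 probe was near background and was not tested. Its signal exceeded background clearly on 1 of 8 arrays, GF WT replicate 5, at 5.83.

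Tpsb2 encodes the tryptase mMCP-6. At day 0 it lay between 5.71 and 6.36 (median 6.19) on the arrays labelled GF Card9-/- and between 5.68 and 6.31 (median 6.18) on those labelled GF WT, a difference of 0.055 (SE 0.13, adjusted p = 0.97). At day 7 its brightest probe read 6.86, 7.15, 5.38 and 6.22 on the arrays labelled GF Card9-/- and 5.34, 6.06, 6.24 and 6.75 on those labelled GF WT, a difference of 0.31 (SE 0.45, adjusted p = 0.933), and its other probe differed by 0.465 (SE 0.30, adjusted p = 0.913). The groups overlapped at both days, with 13 of 13 and 7 of 8 arrays well above background. When 1 array was left out, the day 7 difference was lowest at 0.0519 (GF WT replicate 1 omitted) and highest at 0.646 (GF Card9-/- replicate 4 omitted). With the replicate number as a block, it changed sign, to -0.60.

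Cma2 encodes a further chymase of the same gene cluster. The record list of its probe names Mcpt4 as well, so its signal and that of Mcpt4 cannot be told apart with certainty. At day 7 it read 6.98, 7.09, 7.14 and 7.29 on the arrays labelled GF Card9-/- and 6.76, 6.43, 6.53 and 6.71 on those labelled GF WT. The groups did not overlap, but the difference was small at 0.51 (SE 0.12, 1.43-fold, adjusted p = 0.913). At day 0 the difference was 0.48 (SE 0.16, 1.39-fold, adjusted p = 0.652), and 5 of 7 arrays labelled GF Card9-/- lay above every GF WT array.

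Cpa3 encodes carboxypeptidase A3, a granule enzyme that degrades peptides such as endothelin and venom toxins. Its probe was well above background on 3 of 7 arrays labelled GF Card9-/- and 0 of 6 labelled GF WT at day 0, and on 1 and 0 of 4 at day 7. At day 0 Cpa3 ranged from 2.36 to 5.97 (median 4.61) on the arrays labelled GF Card9-/- and from 2.31 to 4.39 (median 2.91) on those labelled GF WT, a difference of 1.02 (SE 0.67, adjusted p = 0.912). At day 7 it read 3.95, 4.73, 2.87 and 4.07 against 2.49, 2.49, 2.50 and 3.86, a difference of 1.07 (SE 0.47, adjusted p = 0.913). The groups overlapped at both days, and no fold is given because every array labelled GF WT had the probe near background. With values near background raised to the floor of each array, the difference was 0.68 at day 0 and 0.12 at day 7.

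Kit encodes the stem cell factor receptor, which the pacemaker interstitial cells of Cajal of the gut wall also make. At day 7 Kit read 11.21, 11.03, 11.46 and 11.22 on the arrays labelled GF Card9-/- and 10.89, 11.38, 11.00 and 11.41 on those labelled GF WT, a difference of 0.059 (SE 0.17, adjusted p = 0.977). At day 0 it ranged from 11.65 to 12.34 (median 12.05) and from 11.75 to 12.31 (median 11.99), a difference of 0.077 (SE 0.13, adjusted p = 0.945). The groups overlapped, and the other probes of Kit on the day 0 design differed by 0.0878 and -0.028. Over the 8 arrays of day 7 and the 13 of day 0, Kit had r = 0.562 and 0.697 with Etv1 and -0.488 and 0.0617 with Ano1. Both are markers of interstitial cells of Cajal. Without the 2 arrays farthest from the median of Kit, the values were 0.226 and 0.771 with Etv1 and -0.226 and 0.504 with Ano1. They describe arrays that share normalization and tissue composition.

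Tpsab1 encodes the tryptase mMCP-7, which C57BL/6 mice do not make because of a splice-site change in the gene. Its probe was well above background on 0 of 13 arrays at day 0 and on 1 of 8 at day 7, GF Card9-/- replicate 6, at 5.58 against 2.46 to 2.52 on the other 7. Ms4a2 encodes the beta chain of FcεRI, which basophils make too. No array of either day had it well above background, and no fold is given for it.

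**Figure D1:**
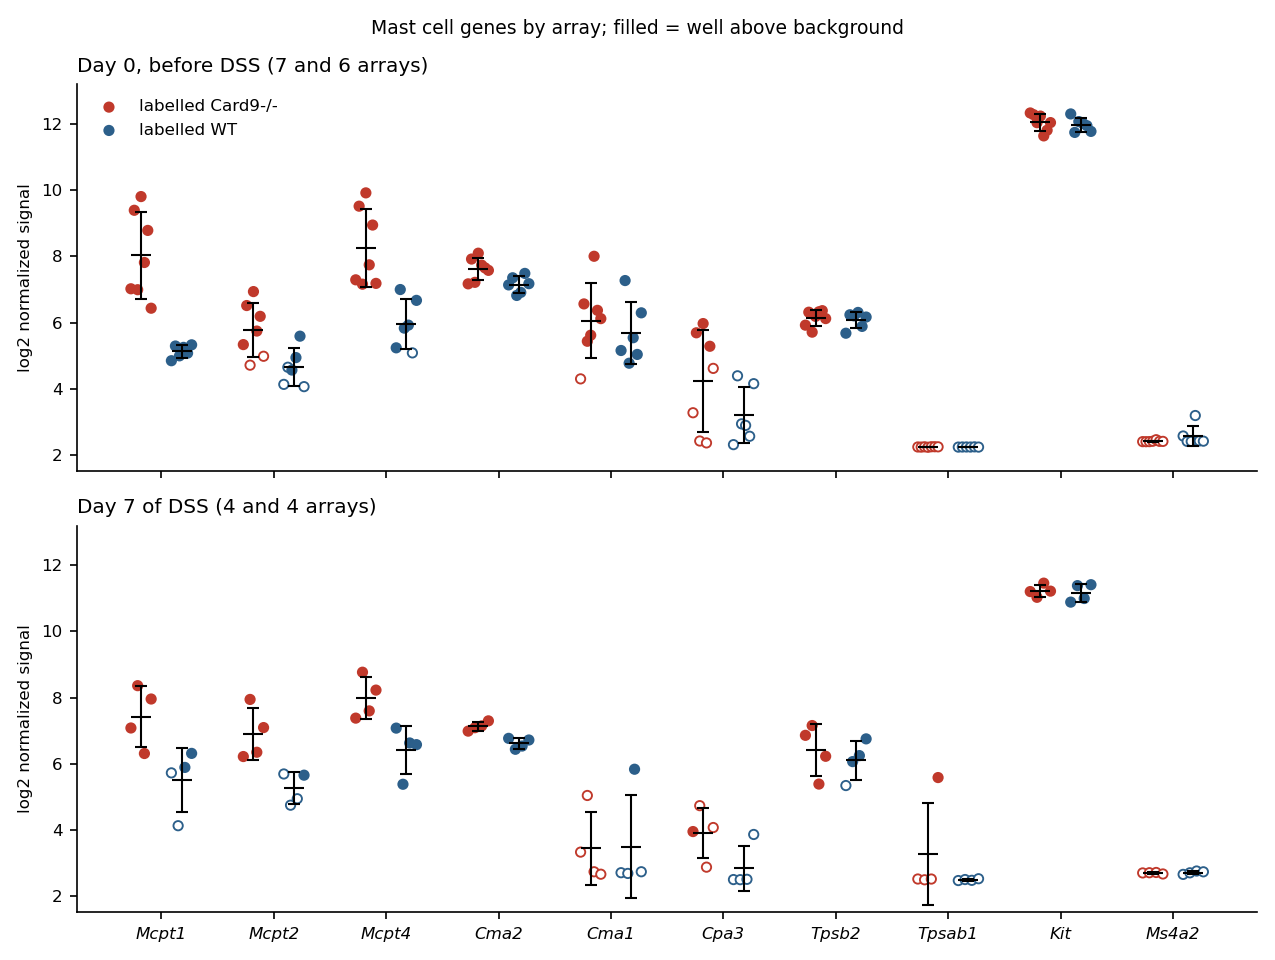
Log2 normalized signal of the 10 genes on every array, day 0 and day 7 in separate panels, with arrays labelled GF Card9-/- and GF WT side by side, filled points where the probe was well above background, and bars for the mean ± SD. Mcpt1 and Mcpt4 do not overlap between the labels at day 0, Mcpt2, Mcpt4 and Cma2 do not at day 7, and Kit and Tpsb2 overlap at both.

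Set against all probes, the members without overlap were 2 of 10 tested at day 0 (Mcpt1 and Mcpt4) and 3 of 8 tested at day 7 (Mcpt2, Mcpt4 and Cma2), all with the arrays labelled GF Card9-/- above and none below. Over all tested probes, such a gap between the groups in the same direction was found for 0.316% at day 0 and 1.08% at day 7. The genes were picked with such differences already known, so these counts describe the members and do not test them. Of the tested members, 9 of 10 at day 0 and 8 of 8 at day 7 had the higher mean under the GF Card9-/- label. Over all named genes tested, each by its brightest probe, this held for 12614 of 22813 at day 0 and 10143 of 20432 at day 7. Cma1 and Ms4a2, mostly near background and not tested at day 7, had the lower mean there. Tpsab1 is counted as higher at both days, although only 1 array, of day 7, had it well above background.

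Mcpt4 was without overlap on both days. Among 23633 probes shared by the designs and tested on each, 0.0169% were higher without overlap under the GF Card9-/- label on each day. These were 4 probes, for Mcpt4, the kinase gene Map3k14, and Trub2 and Coq4, which lie on chromosome 2 as Card9 does. Mcpt1 missed this at day 7 through 1 pair of arrays, 6.306 on GF Card9-/- replicate 4 and 6.310 on GF WT replicate 6, and it had no overlap under 75th percentile scaling, normexp background correction or in the authors' table, where 4 members had none. Without GF Card9-/- replicate 4, Mcpt1 and Cpa3 also had no overlap at day 7 and the count of members rose from 3 to 5, and it was also 5 without GF WT replicate 6.

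**Figure D2:**
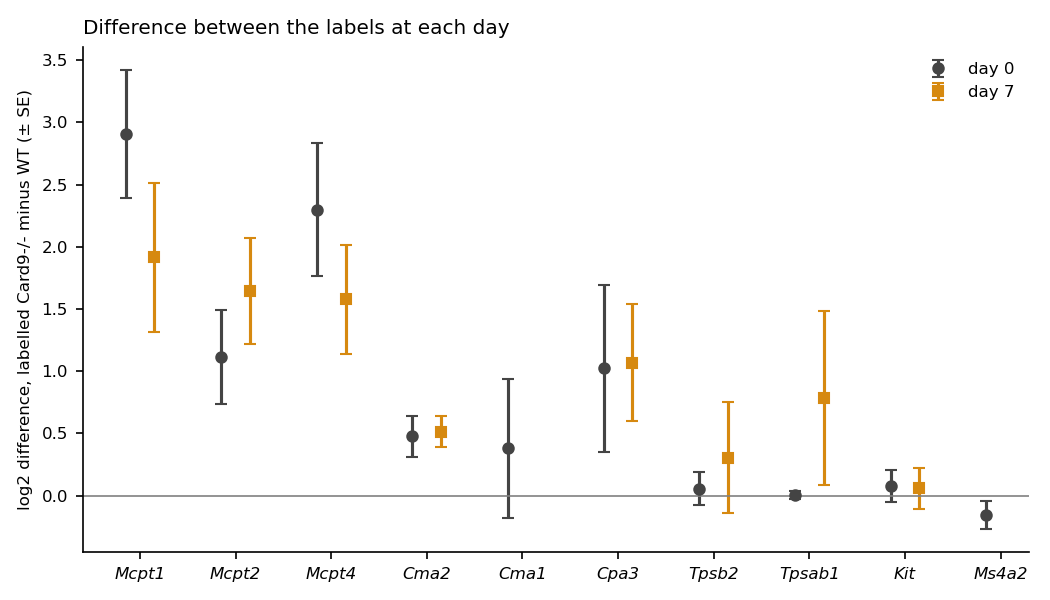
Difference in log2 normalized signal, arrays labelled GF Card9-/- minus arrays labelled GF WT, for each tested member at each day, with bars for ± 1 SE. Mcpt1, Mcpt2 and Mcpt4 lie farthest above 0 at both days, while Kit and Tpsb2 lie near 0.

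Whether the difference itself changed between the days was asked in a joint fit of the 4 groups, in which DSS cannot be separated from the change of array design. The difference of Mcpt1 was smaller at day 7 than at day 0 (change -0.99, SE 0.83, adjusted p = 0.845), and that of Mcpt4 was smaller as well (change -0.72, SE 0.78, adjusted p = 0.891). The change was 0.04 for Cma2 (SE 0.23), 0.04 for Cpa3 (SE 0.95) and -0.02 for Kit (SE 0.21), with adjusted p of 0.985, 0.997 and 0.992. The differences of Tpsb2 (by the probe on both designs) and Tpsab1 were larger at day 7, with changes of 0.41 (SE 0.29, adjusted p = 0.81) and 0.78 (SE 0.56, adjusted p = 0.811), although Tpsab1 was near background on all arrays but 1. No member passed the threshold, and 0% of the 23633 probes did, with 1688 at an unadjusted p under 0.05. Mcpt2 and Cma1 could not be entered, as their probes differ between the designs.

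Slides are a batch that holds both labels at day 0, where each of 4 slides carried at least 1 array of each. Within slides, Mcpt1 was higher in the arrays labelled GF Card9-/- on 4 of 4 slides (differences 1.59 to 3.29), and so was Mcpt4 (1.68 to 2.73), both without overlap on any slide. Mcpt2 was higher on 4 of 4 slides (0.49 to 1.90) and without overlap on 3. Kit, Cma1 and Tpsb2 were each higher on 2 of 4 slides, with differences from -0.26 to 0.31, -0.20 to 0.96 and -0.20 to 0.44. In the 2 scan sessions of day 0 the difference was 2.54 and 3.17 for Mcpt1, 2.18 and 2.34 for Mcpt4, and 0.61 and 1.53 for Mcpt2.

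At day 7 only 2 of the 6 slides held both labels, with 1 array of each. On them Mcpt1 differed by 0.77 and 4.24, Mcpt4 by 0.80 and 3.39, and Mcpt2 by 0.56 and 3.20, all higher in the array labelled GF Card9-/-, while Kit was lower on both (-0.35 and -0.21). Cma2 (0.27 and 0.65) and Tpsb2 (0.11 and 1.09) were higher on both as well, as were Cpa3 (0.09 and 2.24) and Cma1 (0.59 and 2.36), which were mostly near background.

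**Figure D3:**
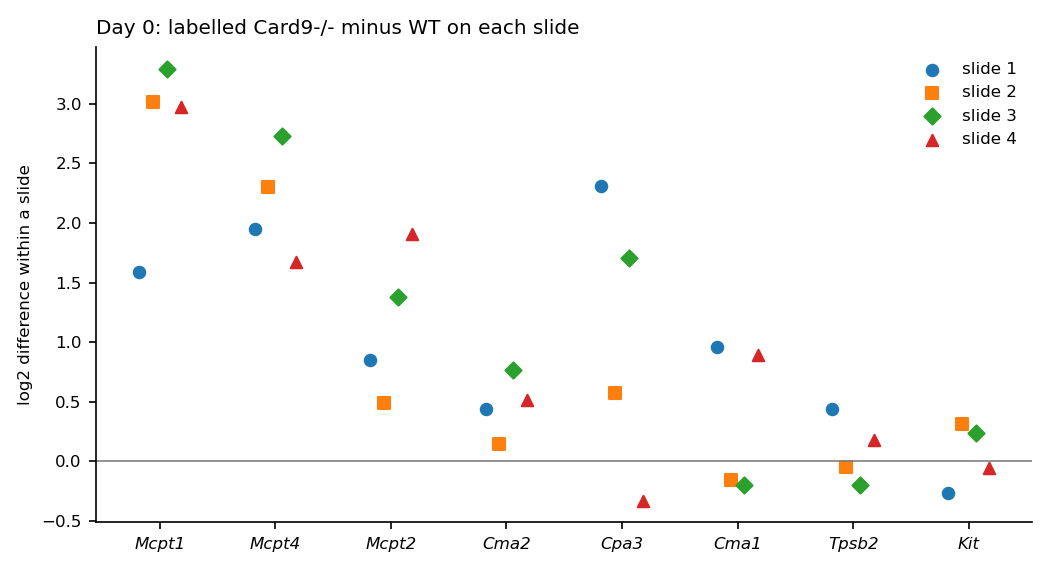
Difference in log2 normalized signal at day 0 within each of the 4 slides, arrays labelled GF Card9-/- minus arrays labelled GF WT, for 8 members. All 4 points lie above 0 for Mcpt1, Mcpt4, Mcpt2 and Cma2, and points lie on both sides of 0 for Cpa3, Cma1, Tpsb2 and Kit.

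Some pairs of chymases varied together among arrays of 1 label at day 0, and others did not. Across the 7 arrays labelled GF Card9-/- at day 0, Mcpt1 and Mcpt4 had Pearson r = 0.984 and Spearman rho = 0.964, and r = 0.951 without the 2 arrays farthest from the median of Mcpt1. Across the 6 arrays labelled GF WT the values were 0.792, 0.771 and 0.92. Mcpt1 and Mcpt2 had r = 0.965 (rho 0.964, 0.903 without 2) in the arrays labelled GF Card9-/- but 0.0497 (rho -0.0857, -0.944 without 2) in those labelled GF WT, where Mcpt2 was well above background on 3 of 6 arrays. The pair Mcpt1 and Mcpt4 holds 1 mucosal and 1 connective tissue gene. These are descriptions over arrays that share slides, normalization and tissue composition.

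In the arrays labelled GF Card9-/- at day 0 the r of Mcpt4 was 0.178 with Cma1 and 0.619 with Tpsb2, and in those labelled GF WT 0.88 and 0.712, and a difference between the labels was not tested. Mcpt1 had r = 0.605 and 0.762 with Tpsb2 in the same groups, and 0.147 and -0.896 with Kit, which became -0.619 and -0.582 without the 2 arrays farthest from the median of Mcpt1. With 4 arrays per label, no correlation within a label is given for day 7.

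**Figure D4:**
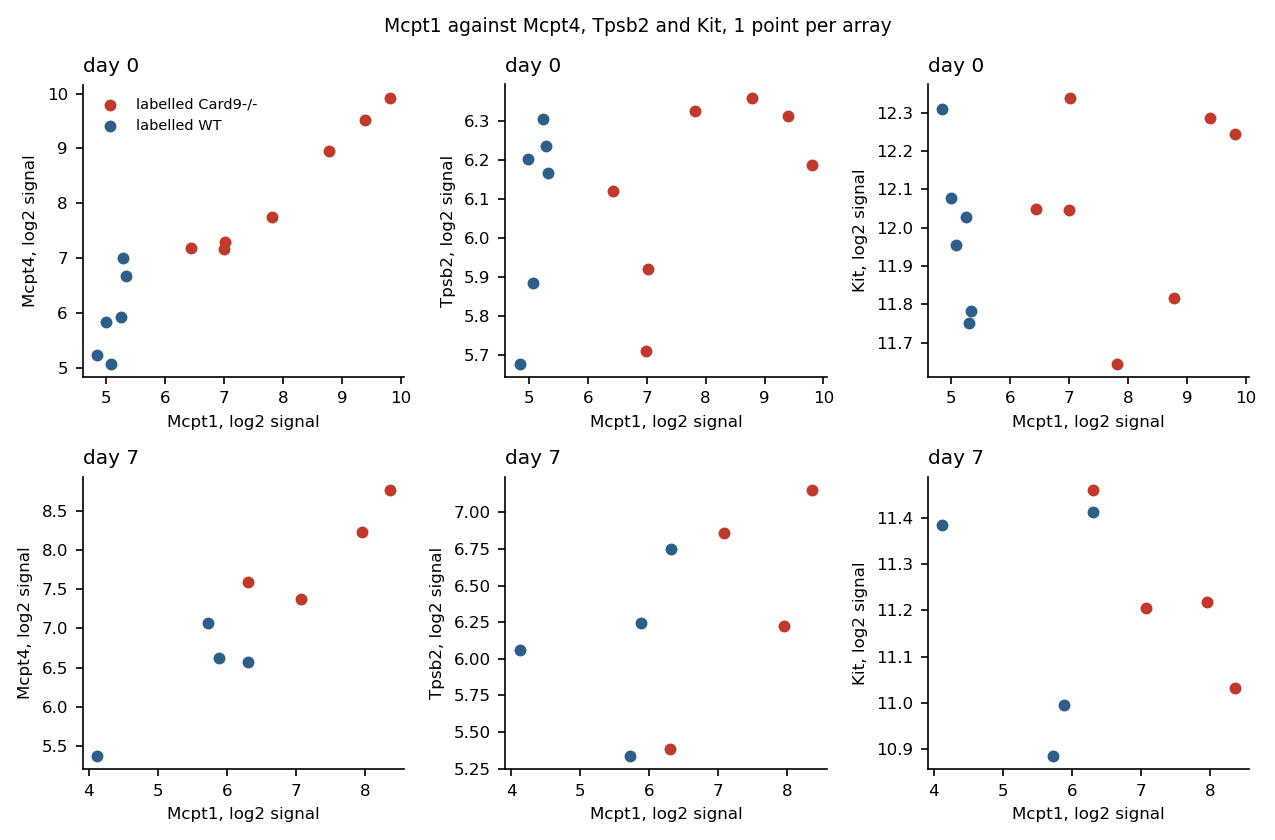
Mcpt1 (x axis) against Mcpt4, Tpsb2 and Kit (y axes), log2 normalized signal of each array at day 0 and day 7, colored by label. Mcpt4 increases with Mcpt1 within the labels at day 0, with r = 0.984 (labelled GF Card9-/-) and 0.792 (labelled GF WT), whereas Kit stays within 11.65 to 12.34 at day 0 over the whole range of Mcpt1.

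Over all arrays of a day, with both labels pooled so that the label difference enters, 18705 genes were ranked by the lower of their 2 daily r with Mcpt1. Mcpt4 ranked 1, Mcpt2 ranked 2 and Cma2 ranked 4. Cpa3 ranked 13, with a probe near background on most arrays, while Tpsb2 ranked 345, Tpsab1 5753 and Kit 10251. Outside the members, the 5 most alike were Trub2 (r = 0.826 at day 7 and 0.845 at day 0), Ang (0.766 and 0.767), Get1 (0.753 and 0.836), Ang4 (0.708 and 0.709) and Coq4 (0.85 and 0.704). Ang4 encodes an antimicrobial angiogenin of the intestinal epithelium. Ang and Ang4 lie on chromosome 14, as the chymases do. For Mcpt4 they were Trub2, Card9, Coq4, Ang and Slc6a13, with lower r of 0.77, 0.768, 0.665, 0.659 and 0.647.

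The upstream sequences of the 2 chymase genes that separated the labels at day 0 are close copies. RefSeq windows (GRCm38.p6) were given for 6 of the 10 members, and the 250 bases before the start of Mcpt1 and Mcpt4 are printed with that of Cma1, from the same cluster, for comparison. Capitals mark the GATA motif (AGATAA or TGATAA on either strand), which GATA factors of mast cells bind.
Mcpt1, chr14:56017714-56017963, plus strand: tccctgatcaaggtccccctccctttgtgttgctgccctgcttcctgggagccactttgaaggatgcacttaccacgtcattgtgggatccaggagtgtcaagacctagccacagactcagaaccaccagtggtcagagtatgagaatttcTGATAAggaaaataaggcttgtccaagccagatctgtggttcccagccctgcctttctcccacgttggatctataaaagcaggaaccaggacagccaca
Mcpt4, chr14:56062311-56062560, minus strand: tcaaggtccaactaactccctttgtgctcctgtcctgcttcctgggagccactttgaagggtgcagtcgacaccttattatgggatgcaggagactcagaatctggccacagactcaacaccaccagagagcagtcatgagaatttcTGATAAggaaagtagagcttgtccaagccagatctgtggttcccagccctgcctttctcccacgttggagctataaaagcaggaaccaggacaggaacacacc
Cma1, chr14:55944676-55944925, minus strand: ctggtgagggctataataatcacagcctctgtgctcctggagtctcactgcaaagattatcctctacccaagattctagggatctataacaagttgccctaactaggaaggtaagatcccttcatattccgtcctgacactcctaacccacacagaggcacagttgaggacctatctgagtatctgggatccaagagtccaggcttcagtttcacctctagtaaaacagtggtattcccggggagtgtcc
The Mcpt1 and Mcpt4 windows were identical at 208 of 254 aligned columns (81.9%, 8 gap columns), with 53 bases as the longest identical run, against 39 to 51.8% for the other 14 pairs of members. Each holds TGATAA, at 99 to 94 bases upstream in Mcpt1 and at 103 to 98 in Mcpt4. Cma1 has no GATA motif in this window, Cpa3 has 1 (AGATAA, 46 to 41 bases upstream), Ms4a2 has 3 and Kit has none. Of 32851 windows of this length, 16.6% hold the GATA motif and 12.3% the E-box CACATG, which none of the 6 members has.

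The chymase genes lie in 1 cluster on chromosome 14, where the member probes span 56560454 to 56678648 (NCBI37). Of the other probes tested within 1 Mb of it at day 0, 0 of 96 had every array labelled GF Card9-/- above and 1 had every one below, with a median difference of -0.02. At day 7, 2 of 97 lay above, for Pspc1 and the pseudogene Mcpt-ps1, with a median of 0.03. The Mcpt-ps1 probe of day 7 shares a run of 27 bases with the Mcpt4 probe and was well above background on none of 8 arrays, so its order between the labels lies within background and no difference is given. None of these other probes passed the adjusted threshold at either day. Farther out on chromosome 14, 4 of the 12 probes past it at day 0 lie between 23403754 and 61615452, an interval that contains the chymase cluster.

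The wider mast cell pathway was followed through 7 lists (75 entries). Of these, 66 were tested at day 7 (49 higher, 17 lower) and 63 at day 0 (26 higher, 37 lower), and 0 passed the adjusted threshold at either day, the lowest adjusted p being 0.913 and 0.565. The median difference over the 10 genes for granule and lipid mediators was 0.33 at day 7 and 0.15 at day 0, and the medians of the 7 lists lay between 0.05 and 0.35 at day 7 and between -0.15 and 0.15 at day 0. The median over all named genes tested was -0.00123 at day 7 and 0.0107 at day 0.

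Among growth factors and cytokines, Kitl, the ligand of Kit, differed by 0.30 (SE 0.24, adjusted p = 0.913) at day 7 and 0.04 (SE 0.06, adjusted p = 0.943) at day 0. Of the IgE receptor and its signalling, 9 of 11 genes had the higher mean under the GF Card9-/- label at day 7 and 5 of 12 at day 0. At day 0 the adaptor gene Gab2 differed by -0.24 (SE 0.08, adjusted p = 0.609), and Fcer1a, the IgE-binding chain, was well above background on 2 of 7 and 0 of 6 arrays, so no difference is given for it. Of the receptors and homing genes, 9 of 14 had the higher mean at day 7 and 2 of 12 at day 0, when the IL-3 receptor chain gene Il3ra differed by -0.54 (SE 0.23, adjusted p = 0.801). Hdc, which makes histamine, differed by 0.41 at day 0 (SE 0.17, adjusted p = 0.803) and 0.59 at day 7 (SE 0.34, adjusted p = 0.913). At day 7 Hdc was well above background on 3 arrays labelled GF Card9-/- and 1 labelled GF WT. Hpgds, the synthase of prostaglandin D, differed by 1.15 at day 7 (SE 0.63, adjusted p = 0.913) and 0.26 at day 0. Il1rl1, the IL-33 receptor, differed by 2.24 at day 7 (SE 1.52, adjusted p = 0.913) and -0.10 at day 0. By the deposited labels, the sign after DSS is opposite to the direction the study gives for Il1rl1, and it would turn if the labels were exchanged. At day 7 Hpgds and Il1rl1 were each well above background on 4 of 4 arrays labelled GF Card9-/- and 2 of 4 labelled GF WT.

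Markers of the other cells in the tissue were read beside these values, in 12 lists with 0 genes past the adjusted threshold at either day. Basophils share Fcer1a and Ms4a2 with mast cells, and their defining protease gene Mcpt8 was well above background on no array. The summed signal of the basophil list was 46.5 to 119 on the arrays labelled GF Card9-/- and 34.7 to 70 on those labelled GF WT at day 7, and 50.6 to 82 against 48.3 to 80.7 at day 0. These sums are mostly background. Of the 5 genes, 0 were well above background on all arrays of a day, and 3 (day 7) and 2 (day 0) on none. Of the 3 markers of interstitial cells of Cajal, 1 had the higher mean at day 7 (median -0.10) and 2 at day 0 (median 0.08). Ano1 differed by -1.11 at day 7 (SE 0.47, adjusted p = 0.913) and 0.13 at day 0. Etv1 (-0.10, SE 0.37) and Kit (0.06, SE 0.17) differed little at day 7. The summed signal of the list was 6760 to 13500 against 10700 to 22900 at day 7 and 21800 to 31500 against 9370 to 37900 at day 0. Smooth muscle markers had lower means under the GF Card9-/- label (0 of 5 higher at both days, medians -0.48 and -0.45). T cell markers had higher means (5 of 5 at both days, medians 0.995 and 0.42), as did the neutrophil markers tested (4 of 4, medians 0.82 and 0.50). The summed neutrophil signal overlapped at day 7, at 695 to 4110 against 995 to 2990. Ly6g, well above background on every array, differed by 0.06 at day 7 (SE 0.66). Cxcr2 was well above background on no array of day 7, and Mmp8, not tested there, had the lower mean. S100a8 and S100a9 were without overlap at day 7, as were 1.08% of all tested probes in that direction. S100a9 differed by 1.65 at day 7 (SE 0.33, adjusted p = 0.913), with 4 arrays labelled GF Card9-/- but only 1 labelled GF WT well above background. S100a8 was well above background on 1 of 8 arrays, so its order between the labels lies mostly within background. Colonocyte markers had higher means in 7 of 7 at day 7 (median 0.37) and 4 of 7 at day 0 (median 0.05). Acinar pancreas markers had the highest medians of the 12 lists, 4.95 at day 7 (5 of 6 higher, 1 without overlap) and 1.51 at day 0. Each includes the 1 array of its day with far more of this signal, GF Card9-/- replicate 6 or 7. Of these markers, Cpb1 had r = 0.757 with Mcpt1 over the 8 arrays of day 7 and -0.1 over the 13 of day 0. Adipocyte markers had a median of 1.45 at day 7 and 0.11 at day 0. At day 0 the median was 0.91 for mesothelium (5 of 5 higher) and -0.56 for macrophages (0 of 5 higher), against 0.39 and 0.05 at day 7. The part of these differences in tissue makeup in the chymase values was not tested.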

How the data were processed

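Single-color arrays of colon RNA were scanned by the authors and read with Agilent Feature Extraction 10.7.3.1 (per the labels). The deposited intensity values are linear, background-subtracted and not normalized between arrays, and a deposited p-value per spot compares the spot with its background. The authors also deposited a table of quantile-normalized log2 values per design, used here only as an alternative. The methods name quantile normalization, limma and Benjamini-Hochberg adjustment.

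The processed signal was log2-transformed and then quantile normalized, all spots included, separately for each day. Control and outlier spots were removed and the spots of a probe averaged, and probes were named through their RefSeq record or else the symbol in the files. A probe was tested when detected (spot p-value under 0.05 for 50% or more of its spots) on 60% or more of a genotype's arrays, with 2 or more values per genotype. Genotypes were compared within each day with limma 3.58.1 (lmFit and eBayes, R 4.3.3), adjusted over all tested probes, and the change between the days was fitted over the 4 groups together. The fit was tested on simulated data, with probes changed up or down by 1 or 2 on the log2 scale. At the real spread it recovered 60 of 200 changed probes among 44643 at day 7 and 139 of 200 among 47410 at day 0. Quantile normalization forces 1 distribution on all arrays of a day, which can shift dim probes. The number of arrays limits the precision, and no spot was saturated (0).

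The named genes are all members by their brightest probe, Card9, list genes past the threshold, and the 5 genes most alike Mcpt1 and Mcpt4 across arrays. Other genes (Kitl, Fcer1a, Hdc, Hpgds, Il1rl1, Mcpt8, Etv1, Ano1, Cpb1, Gab2, Il3ra, Ly6g, Cxcr2, Mmp8, S100a8 and S100a9 of the lists, and Map3k14, Pspc1 and Mcpt-ps1) were named after their values were seen. The members, lists and alternatives were chosen with earlier results of these data known. Probe positions are on NCBI37 and RefSeq promoter windows on GRCm38.p6. The alternatives changed the scaling, the background correction, the filter, the floor of dim values, the probe summary, the slide, session or replicate block, and the arrays included.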

Additional observations from a re-analysis of the deposited data

Results flagged for a closer look

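Of 40 groups of arrays examined over the members, 5 held 1 array far from the rest of its group by Dixon's criterion, which chance alone gives in about 1 of 20 groups. Cma1 at day 7 was 5.83 on GF WT replicate 5 (log2 normalized signal), with 2.73 the nearest of its group. Tpsab1 at day 7 was 5.58 on GF Card9-/- replicate 6, with 2.51 the nearest. Cpa3 at day 7 was 3.86 on GF WT replicate 6, with 2.50 the nearest, and was not well above background there. Ms4a2 at day 0 was 2.46 on GF Card9-/- replicate 5 and 3.19 on GF WT replicate 4, with 2.41 and 2.57 the nearest, none of them well above background.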

How the results depend on the processing

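No member passed the adjusted threshold under any alternative at either day, with a count of 0 throughout. The differences of Mcpt1, Mcpt2 and Mcpt4 stayed positive in every alternative run, arrays left out included. At day 7 they lay between 1.06 and 2.50, 0.82 and 1.88, and 1.03 and 2.1 under the alternatives. At day 0 they lay between 1.70 and 3.17, 0.43 and 1.25, and 1.46 and 2.47, and the lowest values came with normexp background correction. Leaving out 1 array gave 1.45 to 2.29 for Mcpt1 and 1.23 to 1.80 for Mcpt4 at day 7, and 2.61 to 3.17 and 2.02 to 2.51 at day 0. Without GF Card9-/- replicates 2.1 and 6, the 2 day 7 arrays with the most pancreas signal, Mcpt1 was 1.18, Mcpt2 1.02 and Mcpt4 1.07.

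The count of probes past the threshold was 0 to 1 at day 7 when 1 array was left out, 1 without GF WT replicate 1. At day 0 it was 12, and became 27 with normexp, 22 with the authors' table, 22 with the filter for signal well above background, 7 with the replicate block, 4 with the mean over a gene's probes (where genes are tested in place of probes) and 8 to 16 when 1 array was left out. For the change between the days it was 0 to 2 when 1 array was left out, 2 without GF WT replicate 5 or 6 of day 7, and 1 with the replicate block. Members with no overlap at day 7 numbered 3 to 5 when 1 array was left out and 6 on only the slides with both genotypes (fewer arrays), and 1 at day 0 with 75th percentile scaling. The causes were not tested.

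Small differences changed sign. With the replicate block at day 7, Tpsb2 was -0.60 and Kit -0.0599. On only the slides with both genotypes, Kit was -0.28 and Tpsab1 -0.00797. At day 0, Tpsb2 was -0.0348 with 75th percentile scaling and -0.011 without the slide of GF WT replicate 6, and Tpsab1 was -5.25e-05 there, -0.0521 with normexp and -0.0514 with the authors' table. Ms4a2 at day 0 was 0.12 with dim values raised to the floor. The change of Cpa3 between the days was -0.56 with that floor and -0.67 with the replicate block. Leaving out 1 array gave -0.0358 to 0.14 for Kit at day 7 and -0.0253 to 0.126 for Tpsb2 at day 0. For the change between the days it gave -0.0386 to 0.116 for Cma2, -0.268 to 0.388 for Cpa3 and -0.113 to 0.0629 for Kit, and without GF Card9-/- replicate 2.1 of day 7 the change was -0.232 for Cpa3 and 0.0476 for Kit.

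Whether the replicate numbers pair the samples is not settled by these values. Same-numbered arrays had deviations from their group means correlated at 0.111 and 0.0292 at day 7 and between -0.0221 and 0.375 at day 0. The highest at day 0 were 0.294, 0.304 and 0.375, for replicates 2, 1 and 5. The same number was the best match of the GF Card9-/- array for replicates 1 and 5 at day 0 and 4 at day 7, and not for the others. No member was called with or without the replicate block, so it cannot decide this. In all, 143 of 156 counts were equal or close to the main count, and 500 of 539 member values kept their sign and their side of the threshold.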
